A study of Mus musculus with 31 samples.

Results

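Transient receptor potential (TRP) channels were followed through ribosome-bound RNA of mouse sensory neurons. The 9 genes were Trpv1, Trpv2, Trpa1, Trpm8, Trpm2, Trpm3, Trpm7, Trpc1 and Trpc6, taken by symbol from the 55536 genes of each deposited count table, and all 9 were found once in both tables. The study used translating ribosome affinity purification (TRAP), in which a GFP-tagged ribosomal protein, L10a, is switched on by Cre recombinase and the tagged ribosomes are pulled down with their RNA. Mice labelled Nav1.8-Cre;L10a-eGFP-fl/fl gave the Cre libraries, in which the tag is driven by Cre under the sodium channel Nav1.8 (gene Scn10a). Mice labelled L10a-eGFP-fl/fl carried the same floxed tag without Cre and gave the control libraries, so that both genotypes share the L10a-eGFP allele. Batch 1 held 4 central axon libraries (dorsal roots with spinal cord, lumbar) and 4 soma libraries (lumbar dorsal root ganglia, DRG) of each genotype. Batch 2 held peripheral axon libraries (sciatic nerve), 4 with Cre and 3 controls, and 4 soma libraries of each genotype. Age and sex of the mice were not given in the labels used here. All neurons that express Nav1.8 or came from cells that did are tagged together, and axon libraries came from tissue that also holds glia, vessels and connective tissue. Per the labels, RNA was estimated at below 100 pg for axons and below 1 ng for somas.

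TRP channels are cation channels that open to temperature, chemicals or lipid signals and depolarise the sensory ending. Trpv1 is the capsaicin and heat receptor, Trpa1 the receptor of electrophilic irritants such as mustard oil, and Trpm8 the menthol and cold receptor, and each marks its own share of small-diameter DRG neurons. Channel protein is needed at the peripheral ending in skin and viscera and also at the central terminal in the dorsal horn, and both arms of the axon lie far from the soma.

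Gene positions are those of GENCODE M21 on GRCm38. Trpv1 lies at chr11:73234292-73261242 and Trpv2 at chr11:62574486-62600515 (both plus strand), Trpa1 at chr1:14872648-14918862 (minus) and Trpm8 at chr1:88277661-88389293 (plus). Trpm2 lies at chr10:77907722-77970563 (minus), Trpm3 at chr19:22139046-22995410 (plus) and Trpm7 at chr2:126791565-126876230 (minus), and Trpc1 and Trpc6 both lie on chr9, at 95705082-95750375 (minus) and 8544142-8680741 (plus). Of their exon bases, 8.2% of Trpm8 and 2.57% of Trpm3 overlap a gene on the opposite strand and 0.73% of Trpm2 overlap one on the same strand.

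Promoter windows are shown for 3 of the members that differed between axon and soma in the Cre libraries. They are Trpv1, which was lower in central axon, and Trpm3 and Trpm7, which were higher in peripheral axon and as high in its controls. Trpv2, which was also lower in central axon than in soma, is not printed. Each window is the 250 bases before a RefSeq transcript start (build GRCm38.p6), printed in transcript direction with every CG dinucleotide in capitals. The windows are chr11:73233899-73234148 (plus strand) for Trpv1, chr19:22138796-22139045 (plus strand) for Trpm3 and chr2:126876262-126876511 (minus strand) for Trpm7.
Trpv1: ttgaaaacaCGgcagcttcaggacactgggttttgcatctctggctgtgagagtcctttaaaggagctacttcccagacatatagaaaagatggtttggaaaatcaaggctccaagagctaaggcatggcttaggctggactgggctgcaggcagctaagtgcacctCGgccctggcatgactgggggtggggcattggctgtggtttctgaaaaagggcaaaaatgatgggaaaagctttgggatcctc
Trpm3: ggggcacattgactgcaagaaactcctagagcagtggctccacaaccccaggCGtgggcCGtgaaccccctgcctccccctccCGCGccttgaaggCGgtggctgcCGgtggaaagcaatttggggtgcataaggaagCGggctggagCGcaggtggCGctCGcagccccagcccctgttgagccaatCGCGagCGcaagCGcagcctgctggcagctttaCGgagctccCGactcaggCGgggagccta
Trpm7: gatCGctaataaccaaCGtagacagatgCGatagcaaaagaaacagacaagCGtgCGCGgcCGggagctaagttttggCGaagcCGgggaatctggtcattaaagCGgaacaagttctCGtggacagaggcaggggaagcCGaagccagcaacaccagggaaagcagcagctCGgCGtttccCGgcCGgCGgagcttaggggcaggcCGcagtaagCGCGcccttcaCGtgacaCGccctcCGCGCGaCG
Trpv1 had 2 CG dinucleotides, and 18.8% of the 32851 windows of that length in the same table had fewer. Trpm3 had 17 (76.5% had fewer) and Trpm7 had 26 (90.4% had fewer), against a median of 6 over all windows. The Trpm3 window printed ends at the base before the gene's start, and a second RefSeq window of Trpm3, at chr19:22447958-22448207, had 9 CG (59.7% had fewer) and no CCAAT. RefSeq windows were present for 8 of the 9 members (all but Trpa1). Of 4 short motifs searched on both strands, CACGTG, which overlaps a CG, was found in the Trpm7 window and in 6.02% of all windows. CCAAT was found in the Trpv1 and Trpm3 windows printed and in 33.8% of all windows. TATAAA (12.4% of all windows) and GGGCGG (32.7%) were in none of the 3 windows printed. These letters describe the windows and say nothing of factors that bind there.

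Total counts ran from 3.60 to 19.6 M (M, mega) per library, and 3 counts, taken as the detection floor, came to 0.153 CPM (a count divided by its library's total and scaled alike for all libraries) in the deepest and 0.833 CPM in the shallowest library. Peripheral axon Cre replicate 2 had 15.1 M counts and the other 3 Cre libraries 4.10 to 5.77 M, with 4.54 to 6.49 M in the peripheral axon controls. Soma controls of batch 2 were as uneven, with 18.1 M counts in replicate 5 and 3.60 to 4.52 M in replicates 6, 7 and 8. Soma control replicate 3 of batch 1 stood apart, with a TMM scaling factor of 0.0547 against 1.30 to 1.78 in the other libraries of that comparison. The gene of the Cre driver, Scn10a, was at 312 to 505 CPM in Cre somas of batch 1, 313 to 432 CPM in those of batch 2, 45.1 to 421 CPM in central axon Cre libraries and 42.1 to 304 CPM in peripheral axon Cre libraries. It was at 0 to 29.9 CPM in the central axon controls and at 0 to 127 CPM in the peripheral axon controls. Soma controls were not free of it, with 33.4 to 625 CPM in batch 1 and 286 to 598 CPM in batch 2. The labels name biological replicates without saying which animals they came from, so p-values measure the spread between these libraries.

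Trpv1 and Trpv2 led the TRP reads of the tagged somas, and Trpm7 and Trpm3 led those of sciatic nerve on average. To compare genes, CPM was divided by the length of each gene's merged exons in kilobases (kb). Of the 9-gene sum on this per-length scale, Trpv2 took 38.8% and Trpv1 34.5% on average in Cre somas of batch 1, and 38.3% and 35.8% in those of batch 2. In central axon Cre libraries the same 2 genes led with 30.3% (range 23.5 to 39.7%) and 23.2% (16.3 to 31.5%). In peripheral axon Cre libraries Trpm7 took 40.8% (17 to 57.0%) and Trpm3 26.0% (13.2 to 43.8%), while Trpv2 took 14.2% (0 to 24.4%) and Trpv1 9.47% (0 to 27.2%). The deepest of them, replicate 2, had another order, with 3.82 CPM per kb of Trpv1 and 3.44 of Trpv2 above 2.38 of Trpm7 and 1.86 of Trpm3. Peripheral axon controls had the same 2 genes first, with 47.4% for Trpm7 and 31.3% for Trpm3. Trpa1 was at most 0.92% of the sum in any Cre soma of batch 2 and 1.73% in any of batch 1. The shares were uneven among controls, where a single gene took up to 96.9% of the sum (Trpm7, central axon control replicate 3).

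**Figure D1:**
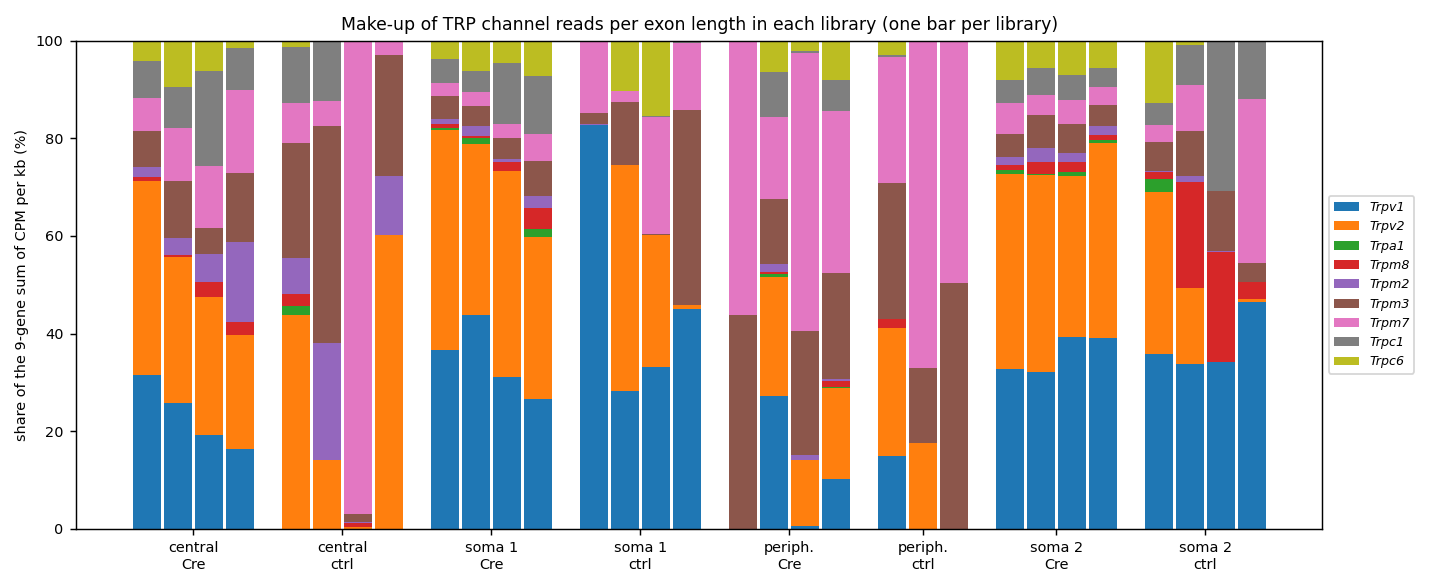
Make-up of the 9-gene sum of CPM per kb of exon in each library (vertical axis, percent), 1 bar per library, grouped by compartment and genotype (horizontal axis). Trpv1 and Trpv2 fill most of each Cre soma bar, and Trpm7 and Trpm3 fill most of the bars of peripheral axon controls.

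All 9 members reached 3 counts in each Cre soma of batch 2 and in 3 of the 4 Cre somas of batch 1. In central axon Cre libraries 8 of 9 did so in each library, with Trpa1 at 0 in all 4. The peripheral axon Cre libraries had 2, 9, 5 and 8 members at this floor, and the count of 9 belonged to the deepest library. Control libraries had 2 to 9 members at the floor.

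The 9 comparisons of groups were fitted on all genes with edgeR, and a gene was called at a Benjamini-Hochberg adjusted p under 0.05. Central axon against soma among Cre libraries called 2 of the 8 members tested, both lower, where 13.7% of all tested genes were called and 5.11% were called lower. Peripheral axon against soma among Cre libraries called 2 of 8, both higher, against 31.2% of all genes called and 18.7% called higher. Cre against control in somas of batch 1 called 1 of 7, higher, against 4.42% of all genes (4.37% higher). These shares of members are near the background or rest on 1 or 2 genes, so the counts carry no statement about the family. Trpa1 had too few counts to pass the low-count filter in any comparison.

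No member was called by edgeR in the other 6 comparisons. Over all genes edgeR called 0.0141% for central axon Cre against control, 0.0802% for peripheral axon against soma among controls, 13.1% for the difference between central and peripheral axon, each relative to its somas, and 0.00% in the other 3. For central axon Cre against control, 1 of 8 members tested had an unadjusted p under 0.05 (4.82% of all genes) and DESeq2 called 1 (1.60%). For peripheral axon Cre against control, 0 of 5 had such a p (3.68%) and DESeq2 called 0 (0.196%). For Cre against control in somas of batch 2 the numbers were 2 of 8 (16.4%) and 1 (8.62%). Among controls, central axon against soma gave 0 of 3 (12.4%) and 0 (5.63%), and peripheral axon against soma gave 2 of 6 (9.78%) and 1 (4.78%). The difference between central and peripheral axon gave 3 of 8 (28.6%) and 3 (19.7%). In the 3 comparisons with a call by edgeR, DESeq2 called 2 of 8 members for central axon against soma (21.8% of all genes), 5 of 8 for peripheral axon against soma (40.2%) and 2 of 7 for somas of batch 1 (23.5%).

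**Figure D2:**
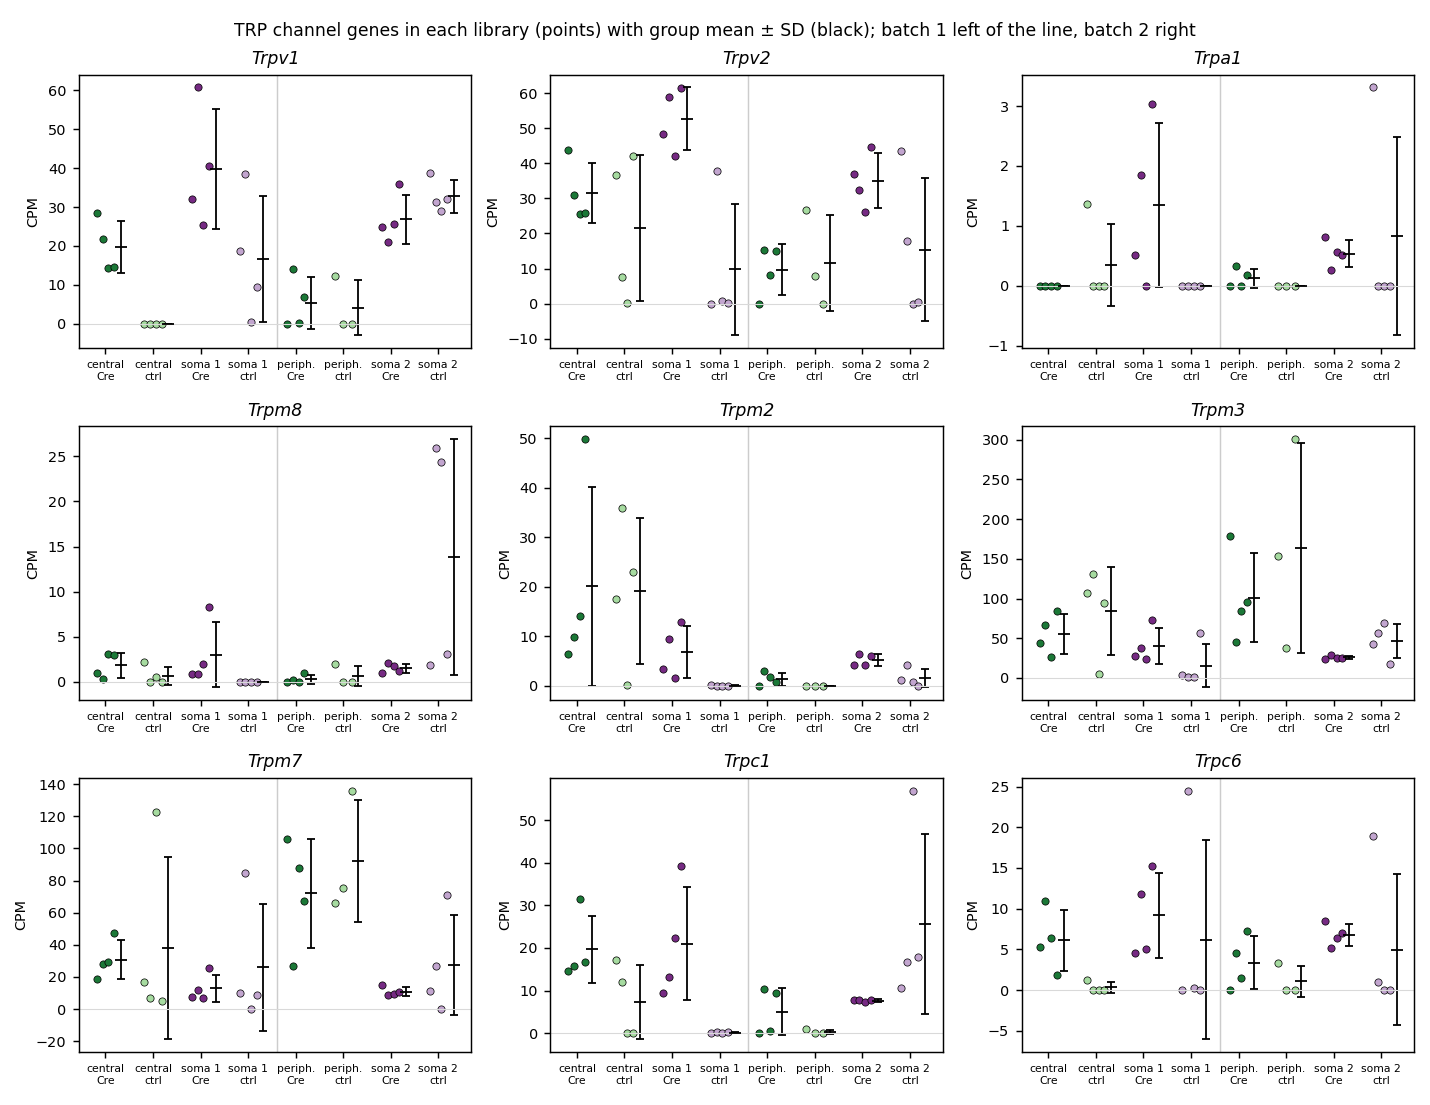
CPM of each TRP channel gene (vertical axis, linear, own scale per panel) in every library (points) of the 8 groups (horizontal axis), with the group mean ± SD in black. Trpv1 is at 0 in all 4 central axon controls, and Trpm3 and Trpm7 are highest in the peripheral axon groups.

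Trpv1, the capsaicin receptor, was present in every central axon Cre library and in none of the central axon controls. Its level was 28.5, 21.7, 14.4 and 14.6 CPM in the 4 central axon Cre libraries, from 153 to 302 counts, and 0 counts in each of the 4 controls. The groups did not overlap, which held for 2 of the 8 members tested (Trpv1 and Trpc6) and for 8.11% of all genes in that comparison. The mean of 19.8 ± 6.71 CPM (SD, n = 4) was at least 60.8-fold higher than the mean floor of 0.326 CPM, which is 3 counts per control library. Counting error was smaller than the spread between libraries: the Wilson 95% intervals ran from 25.5 to 31.9 CPM for the highest and from 12.3 to 16.8 CPM for the lowest Cre library. Nociceptor markers summed to 1760 to 8640 CPM in these Cre libraries and to 458 to 1350 CPM in the controls. All 8 had a fitted difference above 0, with a median log2 of 3.33 against 0.11 for all genes. edgeR called 0 of the 8, where it called 0.0141% of all genes. The Trpv1 difference did not pass the edgeR test over all genes (adjusted p = 0.227), and adjusted p ranged from 9.037e-10 with DESeq2 to 0.9271 over the alternatives run. In libraries like these, fewer tagged axons and less RNA per axon cannot be told apart.

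Within Cre libraries of batch 1 Trpv1 was lower in central axon than in soma. The Cre somas had 32.2, 60.9, 25.5 and 40.5 CPM, so that the highest axon library lay above the lowest soma library and the ranges overlapped, as they did for all 8 members tested (25.2% of all genes did not overlap). The fitted difference was -1.39 on the log2 scale (SE 0.40), with an adjusted p of 0.0349 from edgeR. The call was lost in 5 of the 8 fits that left out 1 library (central axon replicates 2, 3 and 4, soma replicates 1 and 2), with adjusted p up to 0.1187. It was also lost when libraries were scaled by their totals alone (-1.0, adjusted p = 0.1029), a scaling under which the median gene was 0.50 higher in axon (0.05 with TMM) and 88% of calls were higher (62.8% with TMM). When the controls of batch 1 shared the fit, the difference was -1.11 (SE 1.36, adjusted p = 0.9999). Markers of other cells moved with the compartment: 6 of 7 spinal neuron markers and 5 of 6 astrocyte markers rose in central axon, where 8.63% of all genes rose. Satellite glia and oligodendrocyte markers rose for 2 of 4 tested in each list. Of the 8 nociceptor markers 3 were called lower, where 5.11% of all genes were, and all 8 had a fitted difference below 0. Summed levels in axon against soma were 257 to 500 against 93.7 to 252 CPM for spinal neuron markers (Gad2, Slc32a1 and Slc6a5 at 0 in the somas) and 296 to 1350 against 1.98 to 32 CPM for astrocyte markers. Nociceptor markers summed to 1760 to 8640 against 7200 to 11500 CPM, and the part of these shifts in the Trpv1 difference was not tested.

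Set against Scn10a, Trpv1 did not differ between central axon and soma beyond the spread between libraries. Scn10a itself had a fitted log2 difference of -1.57 between central axon and soma (SE 0.58), which edgeR did not call (adjusted p = 0.0869). Trpv1 counts came to 6.76, 20.8, 11.6 and 32.5% of Scn10a counts in the central axon Cre libraries and to 10.3, 13.2, 7.04 and 8.02% in the Cre somas. The log2 ratio was 0.70 higher in axon (exact two-sided permutation test p = 0.286), and that of Trpv2 was 0.92 higher (exact p = 0.143). Both had an adjusted p of 0.286 over these 2 tests, which were chosen after the levels had been seen, and the smallest p that 4 against 4 libraries allow is 0.0286. Central axon controls had 454, 60, 1 and 410 counts of Trpv2 beside 26, 0, 0 and 292 of Scn10a, and 0 counts of Trpv1. The Trpv2 ratio is therefore not one of tagged neurons alone, and the part of untagged RNA in it was not tested.

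Trpv1 in soma did not mark the tagged libraries. Cre somas of batch 2 had 24.9, 21.1, 25.6 and 35.9 CPM and their controls 38.7, 31.3, 28.9 and 32.1 CPM. The 2 groups overlapped, with a fitted difference of -0.02 (SE 0.40), a sign that turned in 3 of the 8 fits that left out 1 library. Controls of batch 1 had 18.6, 38.4, 0.431 and 9.52 CPM in replicates 1, a, 3 and b, and only replicate a exceeded the lowest Cre soma. In sciatic nerve the Cre libraries had 0, 14.1, 0.244 and 6.76 CPM and the controls 12.3, 0 and 0 CPM. The peripheral axon Cre libraries lay below all Cre somas of batch 2 (log2 difference -2.46, SE 0.99) without passing the edgeR test (adjusted p = 0.0799). edgeR without the low-count filter called it (-2.59, adjusted p = 0.03797), as did DESeq2 (-2.65, adjusted p = 0.01934). Ordered by mean CPM, Trpv1 went from Cre somas of batch 1 (39.8) through controls (32.7) and Cre (26.9) of the somas of batch 2, central axon Cre (19.8), soma controls of batch 1 (16.7), peripheral axon Cre (5.27) and controls (4.11) to central axon controls (0). Each group but the last overlapped its neighbours, and the last overlapped the peripheral axon controls, which also held zeros.

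Trpv2, a relative of Trpv1 found in larger sensory neurons and in many other cells, was present in central axon controls as well. Central axon Cre libraries had 43.7, 30.9, 25.6 and 25.7 CPM and their controls 36.7, 7.68, 0.123 and 42.0 CPM. The groups overlapped, with 2 of the controls above 3 of the Cre libraries (log2 difference 0.58, SE 1.25). Cre somas of batch 1 had 48.4, 59.0, 42.1 and 61.3 CPM, so that central axon was lower by edgeR (log2 -1.15, SE 0.33, adjusted p = 0.0349). That call was lost in 6 of the 8 fits that left out 1 library (all but central axon replicate 1 and soma replicate 4), without the low-count filter (adjusted p = 0.05385), with scaling by totals alone (-0.74, adjusted p = 0.1292) and with all 4 groups in one fit (-0.84, SE 1.60, adjusted p = 0.9999). Cre somas of batch 2 had 37.0, 32.3, 26.2 and 44.7 CPM, all above the peripheral axon Cre libraries at 0, 15.4, 8.30 and 15.1 CPM, a difference of -1.99 (SE 0.80) that edgeR did not call (adjusted p = 0.0788). It was called by edgeR without the low-count filter (-2.14, adjusted p = 0.0364) and by DESeq2 (-2.13, adjusted p = 0.01941). Soma controls were uneven, with 0, 37.9, 0.863 and 0.251 CPM in replicates 1, a, 3 and b of batch 1 and 43.4, 17.8, 0 and 0.443 CPM in batch 2. By mean CPM the order was Cre somas of batch 1 (52.7), Cre somas of batch 2 (35.1), central axon Cre (31.5), central axon controls (21.6), soma controls of batch 2 (15.4), peripheral axon controls (11.5), soma controls of batch 1 (9.76) and peripheral axon Cre (9.70), and neighbouring groups overlapped throughout.

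Trpa1, the irritant receptor, was low in every library. It had 0 counts in all 4 central axon Cre libraries, which allows up to 0.269 to 0.287 CPM, and 17 counts (1.37 CPM) in central axon control replicate 1. Cre somas had 0.518, 1.85, 0 and 3.04 CPM in batch 1 and 0.812, 0.257, 0.560 and 0.515 CPM in batch 2. The highest level of all libraries was 3.32 CPM, in soma control replicate 5 of batch 2, whose 3 fellow controls were at 0. Soma controls of batch 1 were all at 0, and the Cre mean of 1.35 ± 1.37 CPM (SD, n = 4) was at least 3.81-fold higher than their mean floor, although 1 of these Cre somas was itself at 0. Peripheral axon Cre libraries had 0 to 5 counts and their controls 0. A difference between axon and soma was not detectable at this depth in batch 2. In batch 1 the soma mean was at least 4.87-fold higher than the central axon floor, although the groups overlapped at 0 through 1 soma. edgeR without the low-count filter gave an adjusted p of 0.04209, where that setting called 2334 of 28221 genes.

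Trpm8, the cold receptor, was low in tagged libraries and higher in some controls. Central axon Cre libraries had 1.04, 0.359, 3.07 and 2.97 CPM and Cre somas of batch 1 had 0.829, 0.877, 1.98 and 8.34 CPM, and these ranges overlapped. Cre somas of batch 2 had 0.999, 2.06, 1.78 and 1.26 CPM, and their controls had 1.88, 25.9, 24.4 and 3.10 CPM. Control replicates 6, 7 and 8 lay above every Cre soma while replicate 5 lay inside the Cre range. The fitted difference was -2.84 (SE 1.00) with an adjusted p of 0.191 from edgeR and 0.01532 from DESeq2, and without control replicate 5 edgeR called it (adjusted p = 0.0492). Soma controls of batch 1 had 0 counts in all 4 libraries, and the Cre mean of 3.01 CPM was at least 8.47-fold higher than their mean floor. Trpm8 did not pass the low-count filter there. edgeR called it without that filter (adjusted p = 0.04171, 1700 of 26037 genes called) and with all 4 groups in one fit (adjusted p = 0.03746, 2114 of 15355 genes called). The 2 batches thus differ in the direction of Cre against control for this gene, and that difference was not tested. The opposite-strand gene over part of the Trpm8 exons is 4930453O03Rik, and since the handling of strand in counting is not given in the sources used here, reads there cannot be told apart. Peripheral axon libraries had 0 to 6 counts with Cre and 0 to 9 in controls.

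Trpm2, a channel opened by oxidative stress and ADP-ribose and also abundant in microglia and some central neurons, was the member called between Cre somas and controls. Cre somas of batch 1 had 3.31, 9.54, 1.64 and 12.8 CPM, while controls had a single count in 1 library (0.123 CPM) and 0 in the other 3. The groups did not overlap, as for 3 of the 7 members tested (Trpv2, Trpm2 and Trpc1) and 28.4% of all genes. The Cre mean of 6.83 CPM was at least 19.3-fold higher than the mean floor of the controls, and edgeR called the gene (adjusted p = 0.023). The call was lost without the low-count filter (adjusted p = 0.05628) and in 5 of the 8 fits that left out 1 library (Cre replicates 1 and 2, control replicates 1, a and b), with adjusted p up to 0.08685. Microglia and macrophage markers summed to 3.62 to 35.1 CPM in these Cre somas and to 0.235 to 61.9 CPM in the controls, with Csf1r, Cx3cr1 and Mrc1 at 0 in all controls, and the part of such cells was not tested. In batch 2 the Cre somas had 4.18, 6.49, 4.18 and 5.95 CPM and the controls 1.16, 4.19, 0.833 and 0 CPM, which overlapped narrowly (log2 difference 2.02, SE 1.11, adjusted p = 0.392).

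In axons Trpm2 was present in dorsal roots with spinal cord whether or not the ribosomes were tagged, and scarce in sciatic nerve. Central axon Cre libraries had 6.42, 9.96, 14.2 and 49.9 CPM and their controls 17.5, 36.0, 0.247 and 23.0 CPM, overlapping groups with means of 20.1 and 19.2 CPM. Peripheral axon Cre libraries had 0, 3.05, 1.71 and 0.693 CPM, all below the Cre somas of batch 2, and their 3 controls had 0 counts (log2 difference from soma -2.0, SE 0.95, adjusted p = 0.129). Relative to soma, central axon exceeded peripheral axon by 3.27 (SE 1.22), which edgeR did not call (adjusted p = 0.0814) and DESeq2 did (adjusted p = 0.02426). Astrocyte markers summed to 1330 to 2350 CPM and microglia and macrophage markers to 37.0 to 77.3 CPM in the central axon controls, with none of either list at 0. Their part in the Trpm2 level was not tested.

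**Figure D3:**
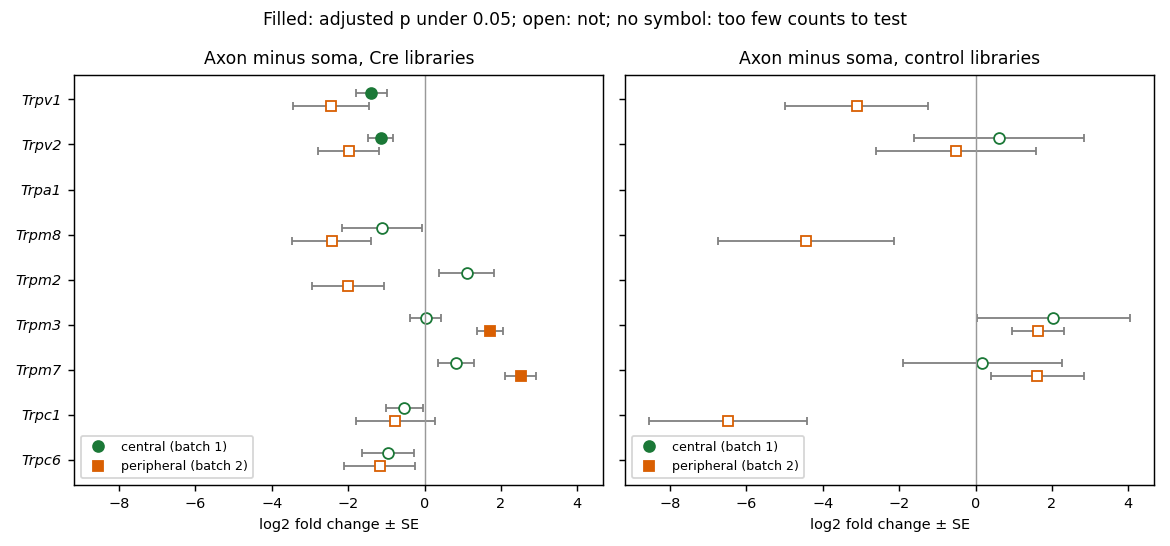
Fitted log2 fold change of axon over soma (horizontal axis, point ± SE) for each TRP channel gene, in Cre libraries (left) and control libraries (right), with central axon as circles and peripheral axon as squares. Filled symbols passed an adjusted p under 0.05: Trpv1 and Trpv2 for central axon, Trpm3 and Trpm7 for peripheral axon.

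Trpm3 and Trpm7 were higher in sciatic nerve than in soma, and sciatic nerve controls had as much of both. Trpm3 is a heat and neurosteroid receptor of nociceptors that is also expressed outside neurons, and Trpm7 is a broadly expressed channel with a kinase domain that carries magnesium and zinc. Trpm3 was at 179, 45.5, 84.4 and 95.7 CPM in peripheral axon Cre libraries and at 23.7, 28.9, 25.6 and 25.6 CPM in Cre somas of batch 2. Every axon library exceeded every soma library, and the difference was 1.71 on the log2 scale (SE 0.35, adjusted p = 0.00369 from edgeR). Trpm7 was at 106, 27.0, 87.9 and 67.6 CPM in the axon libraries and at 14.9, 8.48, 9.57 and 10.8 CPM in the somas. Its difference was 2.51 (SE 0.41, adjusted p = 0.000981 from edgeR), again with no overlap. Groups did not overlap for 5 of 8 members (these 2 higher, and Trpv1, Trpv2 and Trpm2 lower) and for 36.7% of all genes. Both calls held in 8 of 8 fits that left out 1 library and were lost when the controls shared the fit (1.57, adjusted p = 0.07557 and 2.37, adjusted p = 0.1125).

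The peripheral axon controls had 154, 37.2 and 301 CPM of Trpm3 and 65.8, 75.5 and 136 CPM of Trpm7. No member was apart from its controls in this nerve (0 of 5 tested, where 6.44% of all genes did not overlap). Cre against control differed by -0.56 (SE 0.61) for Trpm3 and -0.26 (SE 0.51) for Trpm7, with adjusted p = 1 for both from edgeR. Among controls the axon exceeded the soma by 1.63 (SE 0.68, adjusted p = 0.44) for Trpm3 and by 1.62 (SE 1.22, adjusted p = 0.776) for Trpm7. The soma controls overlapped with the nerve controls, at 42.3, 56.5, 68.6 and 18.2 CPM for Trpm3 and 11.5, 26.9, 0 and 71.3 CPM for Trpm7.

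Markers of nerve-resident cells moved with these 2 genes among Cre libraries, where 18.7% of all genes were called higher. All 6 Schwann cell markers rose in peripheral axon, from a summed 334 to 607 CPM in Cre somas to 7040 to 18500 CPM in axons, and the sums were 5890 to 10300 CPM in the axon controls. All 6 fibroblast markers rose (173 to 364 against 3820 to 6690 CPM), as did all 6 endothelial and mural markers (30.4 to 51.6 against 124 to 219 CPM) and all 3 skeletal muscle markers tested of 5 (12.6 to 66.3 against 550 to 2110 CPM). No marker of these 4 lists was at 0 in all 4 peripheral axon Cre libraries. The part of these cells in the Trpm3 and Trpm7 differences was not tested.

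In central axon neither gene differed from soma beyond the spread. Trpm3 had 43.9, 66.3, 26.9 and 84.7 CPM in central axon Cre libraries and 27.2, 37.8, 23.8 and 72.9 CPM in Cre somas of batch 1 (log2 0.03, SE 0.41, adjusted p = 0.975). Trpm7 had 18.9, 28.1, 29.3 and 47.2 CPM against 7.46, 11.8, 7.16 and 25.4 CPM (log2 0.82, SE 0.46, adjusted p = 0.259), and only soma replicate 4 reached the axon range. Central axon controls overlapped the Cre libraries, with 107, 131, 4.82 and 94.3 CPM of Trpm3 and 17.1, 7.16, 123 and 5.22 CPM of Trpm7. Relative to soma, central axon was below peripheral axon by 1.52 for Trpm3 (log2 -1.52, SE 0.57, adjusted p = 0.082) and 1.53 for Trpm7 (log2 -1.53, SE 0.62, adjusted p = 0.108). edgeR called neither and DESeq2 called both (adjusted p = 0.0369 and 0.0497). Axon type and batch coincide, and each axon was therefore set against somas of its own batch. By mean CPM, Trpm3 ranked peripheral axon controls (164), peripheral axon Cre (101), central axon controls (84.3), central axon Cre (55.5), soma controls of batch 2 (46.4), Cre somas of batch 1 (40.4) and of batch 2 (26.0) and soma controls of batch 1 (15.4), with every neighbouring pair overlapping. Trpm7 had the same first 4 groups, with means of 92.6, 72.1, 38.1 and 30.9 CPM.

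Trpc1 and Trpc6 encode receptor-operated channels, with Trpc1 a subunit of mixed channels and Trpc6 opened by diacylglycerol. Trpc1 had 9.43, 13.1, 22.3 and 39.3 CPM in Cre somas of batch 1, while the controls had 0 to 3 counts. The Cre mean of 21.1 CPM was at least 59.3-fold higher than their mean floor and the groups did not overlap, but edgeR did not call it (adjusted p = 0.142). Adjusted p fell to 0.02115 with scaling by totals alone, 0.0003099 with DESeq2, 0.04082 with all 4 groups in one fit and 0.01794 without soma control replicate 3. In batch 2 the order was turned: Cre somas had 7.87, 7.77, 7.23 and 7.78 CPM and every control was higher, with 10.6, 16.8, 56.9 and 17.9 CPM. That difference was -1.42 (SE 0.63, adjusted p = 0.289 from edgeR), Trpc1 was the only 1 of the 8 members tested without overlap there, and 11.9% of all genes did not overlap. The difference between the batches in Cre against control was not tested.

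Central axon Cre libraries had 14.6, 15.7, 31.5 and 16.8 CPM of Trpc1 and their controls 17.2, 11.9, 0 and 0 CPM, and only control replicate 1 reached the Cre range. Against Cre somas of batch 1 the central axon difference was -0.53 (SE 0.49, adjusted p = 0.506). Peripheral axon Cre libraries had 0, 10.3, 0.488 and 9.36 CPM of Trpc1 and their controls 0 to 4 counts. In the order of means, central axon Cre (19.6 CPM) stood apart from the next lower group, the Cre somas of batch 2 (7.66 ± 0.29 CPM, SD, n = 4), and no other neighbouring pair did so for any of the 9 genes.

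Trpc6 was seen in central axon with Cre and hardly without it. The 4 Cre libraries had 5.28, 10.9, 6.42 and 1.82 CPM, and the controls had 16 counts in replicate 1 (1.29 CPM) and 0 in the other 3. The groups did not overlap, with a fitted difference of 4.18 (SE 1.98, unadjusted p = 0.0587 and adjusted p = 1 from edgeR), which fell between 3.76 and 8.95 in the fits that left out 1 library. Cre somas had 4.56, 11.8, 5.09 and 15.3 CPM in batch 1 and 8.43, 5.14, 6.37 and 6.98 CPM in batch 2. Soma controls were uneven, with 24.5 CPM in replicate a of batch 1 and 18.9 CPM in replicate 5 of batch 2 against 0 to 0.987 CPM in the other 6. Peripheral axon Cre libraries had 0, 4.58, 1.46 and 7.28 CPM and overlapped the somas (log2 -1.17, SE 0.93, adjusted p = 0.359).

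Among control libraries edgeR called no member between axon and soma when each comparison was fitted on its own groups. Central axon controls against soma controls could be tested for Trpv2 (0.61, SE 2.22), Trpm3 (2.04, SE 2.01) and Trpm7 (0.18, SE 2.08), with adjusted p of 0.799 to 0.993 from edgeR. Peripheral axon controls lay below all soma controls of batch 2 for Trpv1 and Trpc1, 2 of the 6 members tested (16.1% of all genes did not overlap), and DESeq2 called Trpc1 lower there (log2 -6.66, adjusted p = 0.0006675). Trpv1 was in the opposite corner, with counts in all 4 soma controls of batch 1 and none in the central axon controls, so that the soma control mean was at least 51.4-fold higher than the axon floor. Trpm2 went the other way, with a central axon control mean at least 54.0-fold above the soma control floor. Both ratios compare tissues within the Cre-negative pulldown. Neither gene passed the low-count filter across those 2 groups. In the fit of all 4 groups of the batch edgeR called both (adjusted p = 0.006447 for Trpv1 and 0.01035 for Trpm2). That fit called 3855 of 15355 genes for this comparison. Without the low-count filter edgeR called neither (adjusted p = 0.2603 for each).

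The other 19 TRP channel genes of the mouse list gave few calls. In Cre somas against controls of batch 1, 1 of 5 tested rose, where 4.37% of all genes rose: Trpc4, a receptor-operated channel, had 2.38 to 11.2 CPM against 0 in all controls, at least 15.9-fold higher than their mean floor (adjusted p = 0.0153 from edgeR). In central axon against soma 1 of 7 tested rose, where 8.63% of all genes rose: Trpc5, a relative of Trpc4, had 1.32 to 8.61 CPM in axon against at most 2 counts per soma, at least 18.1-fold higher (adjusted p = 0.0124). The central axon controls held as much Trpc5, with 0.864 to 13.0 CPM. In peripheral axon against soma 1 of 7 rose, where 18.7% of all genes rose: Pkd2, the polycystin-2 channel of cilia and endoplasmic reticulum, had 18.9 to 40.7 CPM against 1.83 to 3.41 CPM (log2 3.40, SE 0.47, adjusted p = 0.000377), and the nerve controls had 30.4 to 68.1 CPM. In the difference of central and peripheral axon relative to soma, 12 were tested, and edgeR called Trpc7 higher (adjusted p = 0.0123, 7.20% of all genes) and Trpv4 lower (adjusted p = 0.0494, 5.88%). Trpc7 had 0 to 11.1 CPM in central axon Cre libraries and 0 in all peripheral ones, with 0 to 50.4 CPM in central and 0 to 4.84 CPM in peripheral axon controls. Trpv4 had at most 0.0943 CPM in central and 0 to 5.37 CPM in peripheral axon Cre libraries. The other comparisons called none of these genes by edgeR.

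Regulators of TRP channels and receptors upstream of them made a list of 19 genes. In central axon against soma 3 of 17 tested fell and none rose, where 5.11% of all genes fell. They were the protein kinases C Prkce (log2 -1.56, SE 0.39, adjusted p = 0.0192) and Prkca (-1.74, SE 0.47, adjusted p = 0.029), which sensitise Trpv1, and the phospholipase Plcb3 (-1.46, SE 0.42, adjusted p = 0.0372). Central axon controls held as much Prkce (116 to 314 against 131 to 208 CPM with Cre) and Prkca (42.8 to 193 against 47.9 to 203 CPM). Plcb3 was at 0 to 29.9 CPM in these controls and at 96.3 to 336 CPM with Cre. In peripheral axon against soma 7 of 18 fell and 1 rose, against 12.5% of all genes lower and 18.7% higher. Those with the smallest adjusted p were the kinase Cdk5 (-1.51, SE 0.24, adjusted p = 0.000779), Pirt, a phosphoinositide-binding regulator of Trpv1 (-2.01, SE 0.43, adjusted p = 0.00503), and the calmodulin gene Calm2 (-1.96, SE 0.43, adjusted p = 0.00519). Pirt was at 951 to 1150 CPM in Cre somas of batch 2 and 124 to 539 CPM in peripheral axon Cre libraries. Peripheral axon controls overlapped the Cre libraries for Pirt (19.0 to 402 CPM), Cdk5 (78.2 to 248 against 148 to 161 CPM) and Calm2 (421 to 3530 against 1360 to 2490 CPM). The chloride channel Ano1, which is activated downstream of Trpv1, was the gene that rose, from 0.0509 to 0.812 CPM in soma to 1.04 to 13.9 CPM in axon (adjusted p = 0.0254). Its level in the peripheral axon controls was 0 to 0.22 CPM. Relative to soma, the lipid kinase Pip5k1c was higher in central than in peripheral axon (2.03, SE 0.45, adjusted p = 0.00723). It was the only call of 19 in that comparison, where 7.20% of all genes were called higher. Pip5k1c was at 208 to 303 CPM in central axon Cre libraries and at 258 to 405 CPM in their controls. In peripheral axon it was at 54.4 to 92.0 CPM with Cre and at 60.7 to 94.1 CPM in controls. All these adjusted p are from edgeR over all genes, and nociceptor markers fell beside them in peripheral axon (7 of 8 called).

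Over the 16 Cre libraries, the genes whose log2 CPM followed a member most closely were ranked by Pearson's r among 14614 genes. For Trpv1 they were Tpbgl (r = 0.976, Spearman's rho 0.806), Tmem132e (0.973, rho 0.632) and Syp, which encodes the synaptic vesicle protein synaptophysin (0.967, rho 0.871). For Trpm3 they were Sema6d, a semaphorin (0.96, rho 0.924), Resf1 (0.944, rho 0.835) and Reep3 (0.944, rho 0.918). For Trpa1 the highest were Synm, an intermediate filament gene (0.832), Tspan14 (0.817) and Kcnk7 (0.802), and for Trpm8 Slc25a30 (0.84), Gpr75 (0.827) and Tnfaip8l3 (0.797). The 16 points share compartments, batches and depth, and for Trpv1 the 2 peripheral axon libraries with at most 1 count lie far below the rest, so these values only describe the libraries.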

How the data were processed

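Ribosome-bound RNA of 31 libraries in 8 groups (compartment, genotype and batch, as labelled) was analysed from the 2 tables of raw read counts per gene that the authors deposited, whole numbers not normalised. Alignment with STAR 2.7.2b to mm10 is per the submitters' processing notes, and the counting program, its annotation and its handling of strand are not given in the sources used here. All 55536 gene identifiers matched GENCODE M21, the source of symbols, positions and exon lengths. In batch 1 the same header stood over 2 soma control columns, which were kept as replicates a and b with no replicate number. No column was left out. No replicate columns were copies (smallest chi-square per degree of freedom 22.8).

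CPM is the deposited count scaled by the library total, and CPM per kb divides it by merged exon length. Totals were 3.60 to 19.6 M (M, mega) counts, and floors (3 counts) and Wilson 95% intervals cover counting error only. Each comparison was fitted on its own groups with edgeR 4.0.16 in R 4.3.3 (filterByExpr with a minimum count of 10 and a minimum total of 15, TMM, glmQLFit, glmQLFTest), with Benjamini-Hochberg adjustment over all genes kept. The standard error is the fold change divided by the root of the quasi-likelihood F. Where 1 group had at most 3 counts in each library, a bound on CPM against the mean floor replaced the fitted fold change. The fit was run on simulated counts with known changes, in which all genes and libraries had the same dispersion. That run checks the code and does not bear on groups as uneven as the controls here. Alternatives were RLE scaling, library size alone, no low-count filter, DESeq2 1.42.0, a fit of all 4 groups of a batch, a replicate block and each library left out. The 9 genes, the lists of other TRP channels, regulators and cell markers and the tests were chosen with earlier results of these data known. Of each list at most 3 called genes per comparison were named, in order of adjusted p. For Trpv1, Trpa1, Trpm8 and Trpm3 the 3 genes with the highest Pearson's r were named, among those with at least 10 counts in at least 8 of the 16 Cre libraries (log2 CPM, prior count 2). The ratios to Scn10a were added after the levels had been seen. Promoter sequences are RefSeq's (GRCm38.p6).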

Additional observations from a re-analysis of the deposited data

Results flagged for a closer look

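Over the 9 genes, 59 sets of 4 libraries had any spread, and in 14 of them 1 library lay so far from the other 3 that the gap took up most of the whole range. For normally distributed values chance gives this in about 1 in 20 sets, and whether these CPM are so distributed was not tested. In 4 of the 14 the other 3 libraries were at 0, where the gap takes the whole range by construction and that rate does not apply. No explanation was tested for any of them.

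Among soma controls of batch 1, replicate a had 37.9 CPM of Trpv2 (0 to 0.863 in the others), 85.0 CPM of Trpm7 (0.108 to 10.3) and 24.5 CPM of Trpc6 (0 to 0.216). Replicate b had 56.1 CPM of Trpm3 (1.17 to 3.19), and replicate 1 had the only Trpm2 count, at 0.123 CPM. Among soma controls of batch 2, replicate 5, the deepest of the 4, had 3.32 CPM of Trpa1 (0 in the others) and 18.9 CPM of Trpc6 (0 to 0.987), and replicate 7 had 56.9 CPM of Trpc1 (10.6 to 17.9).

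Among central axon controls, replicate 1 had 1.37 CPM of Trpa1 and 1.29 CPM of Trpc6 with 0 of both in the others, and replicate 3 had 123 CPM of Trpm7 (5.22 to 17.1). Among Cre libraries, soma replicate 4 of batch 1 had 8.34 CPM of Trpm8 (0.829 to 1.98) and central axon replicate 3 had 31.5 CPM of Trpc1 (14.6 to 16.8). Soma replicate 7 of batch 2 was low in Trpc1 at 7.23 CPM, with the others at 7.77 to 7.87.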

How the results depend on the processing

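Counts of called members changed with the test as follows (counts as reported are in the results). DESeq2 called 1 member for central axon Cre against control, 2 and 1 for Cre against control in somas of batch 1 and 2, 5 for peripheral axon against soma with Cre, 1 for it among controls and 3 for the difference of axons. Library size alone gave 2 for somas of batch 1 and 0 for central axon against soma with Cre, and no low-count filter gave 4 for peripheral axon against soma. Fitting all 4 groups of a batch gave 3 for somas of batch 1, 0 for each axon against soma with Cre and 2 for central axon against soma among controls. Leaving out 1 library gave 0 to 2 members for somas of batch 1, 0 to 1 for those of batch 2, 0 to 2 for central and 2 to 4 for peripheral axon against soma with Cre and 0 to 3 for the difference of axons. Over all genes, calls for central axon Cre against control were 34 with no filter, 216 with DESeq2, 1 with all groups and 0 to 5 leaving out 1 library. For peripheral axon Cre against control they were 27 with DESeq2 and 1 with all groups. For somas of batch 1 they were 2244 with library size alone, 1700 with no filter, 1902 with DESeq2 (74.7% higher), 2114 with all groups and 0 to 3094 leaving out 1 library, the highest without control replicate 3. For somas of batch 2 they were 21 with RLE, 257 with library size alone, 162 with no filter, 1160 with DESeq2, 175 with all groups and 0 to 1826 leaving out 1 library, the highest without control replicate 5. For central axon against soma with Cre they were 3143 with DESeq2, 15 with all groups and 822 to 2717 leaving out 1 library. For peripheral axon against soma they were 1404 with all groups and 3220 to 6055. Among controls they were 5, 46, 392 and 3855 for central axon (library size alone, no filter, DESeq2, all groups), with 0 to 4 leaving out 1 library. For peripheral axon among controls they were 268, 607 and 526 (no filter, DESeq2, all groups), with 0 to 43. For the difference of axons they were 3290 with DESeq2 and 1394 to 2856. The cause was not tested.

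Signs turned for members that were not called. In somas of batch 1 Trpc6 became 0.56 with library size alone, 0.15 with no filter and 0.29 with all groups, and in somas of batch 2 Trpv1 became 0.05 with no filter and 0.05 with all groups. Leaving out 1 library gave these log2 ranges. Central axon Cre against control had -0.84 to 0.55 for Trpm2 and -0.64 to 1.64 for Trpm7. Peripheral axon Cre against control had -0.07 to 8.19 for Trpv1, -0.73 to 1.23 for Trpv2, -1.01 to 0.11 for Trpm3 and -0.46 to 0.02 for Trpm7. Somas of batch 1 had -1.84 to 0.57 for Trpm7 and -0.48 to 3.30 for Trpc6, and those of batch 2 -0.17 to 0.11 for Trpv1 and -1.49 to 0.04 for Trpm7. Central axon against soma had -1.47 to 0.04 for Trpm8 and -0.26 to 0.40 for Trpm3 with Cre, and among controls -0.36 to 4.00 for Trpv2 and -1.89 to 2.32 for Trpm7. Peripheral axon against soma among controls had -1.89 to 0.82 for Trpv2, and the difference of axons had -0.03 to 1.10 for Trpc1 and -0.04 to 0.95 for Trpc6. Over the members and alternatives, 776 of 869 refits kept direction and side of the threshold and 44 turned sign. Only 5 of the 61 member results refitted were called as reported, so most of the 776 belong to results that were not called. A call was lost in 25 refits and gained in 24, and the 25 all fall on those 5 results.

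The labels do not say what a shared replicate number means, and the libraries were not treated as paired: same-numbered deviations correlated between -0.112 and 0.203, not every pair was above 0.1 and not every library correlated best with its own number. With the replicate block, somas of batch 1 kept only replicates 1 and 3 of each genotype, because controls a and b have no number. No member was called in that fit (0 over all genes, and Trpm2 at 4.67 with an adjusted p of 1), and so few libraries could hardly give a call. With the block 1 gene was called for central axon Cre against control. There Trpm7 turned to 0.94, in peripheral axon Cre against control Trpv2 turned to 0.86, and in somas of batch 1 Trpm7 turned to 0.43 and Trpc6 to 3.34. No paired analysis was possible for peripheral axon against soma because these groups share no replicate numbers. Depth limits Trpa1, which passed the low-count filter in no comparison.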
